A study of Mus musculus with 12 samples.

Results

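The nuclear-encoded genes of the mitochondrial respiratory chain were described across spleens of male ICR mice, an outbred stock. The members were chosen by gene symbol, from the subunit families of NADH dehydrogenase (Ndufa, Ndufb, Ndufc, Ndufs, Ndufv), succinate dehydrogenase (Sdha to Sdhd), the cytochrome bc1 complex (Uqcr, Cyc1), cytochrome c (Cycs), cytochrome c oxidase (Cox4i to Cox8) and ATP synthase (Atp5), leaving out pseudogene symbols and the Ndufaf assembly factors. This gave 89 of the 18221 genes listed, of which 41 belong to complex I, 4 to complex II, 9 to complex III, 1 is cytochrome c, 17 belong to complex IV and 17 to complex V. The 12 mice fell into 4 groups of 3, all 3 weeks old at the start and 8 weeks old at collection. Con-sa mice were dosed with saline. B-sa mice received a single injection of busulfan, an alkylating anticancer drug, at 40 mg/kg body weight, and saline. B+Con-FMT mice received the same busulfan injection and then, by mouth for 2 weeks, gut contents from control donors, and B+A10-FMT mice received busulfan and gut contents from donors that had been given alginate oligosaccharide (AOS) at 10 mg/kg. Donor contents were pooled within each donor group before dosing, so the mice of an FMT group may share 1 inoculum. The paper states that the animal experiments were repeated, without saying which repeat the sequenced mice came from. No group received an FMT without busulfan.

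Complex I takes electrons from NADH and complex II from succinate, complex III passes them to cytochrome c, and complex IV passes them from cytochrome c to oxygen. Complexes I, III and IV pump protons, and complex V, the ATP synthase, lets the protons return and makes ATP. A few core subunits of complexes I, III, IV and V are encoded in mitochondrial DNA, which is not part of the gene set here. The spleen filters aged red cells in its red pulp, houses lymphocytes in its white pulp and, in mice, makes red cells, whose precursors carry mitochondria until late in their maturation.

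The sequences just upstream of 3 genes are shown because these genes differed between Con-sa and B-sa in the tests described further on, and because Atp5l and Cycs carry short sequences known to be recognised by regulators of respiratory chain genes while Ndufv2 carries none of the 3 that were searched. The letters searched, on both strands, were GCGCATGC for NRF1, CCGGAAG for ETS factors such as GABP, and AANATGGCG for YY1, and a match is in capitals. Each run is the 250 bases before the RefSeq transcription start, 5′ to 3′ on the strand of the gene, on build GRCm38.p6. All 3 genes lie on the minus strand, Atp5l with its window at chr9:44920743-44920992, Cycs at chr6:50566570-50566819 and Ndufv2 at chr17:66101560-66101809. The windows of Atp5l and Cycs overlap exons of antisense noncoding RNAs in GENCODE M21.
Atp5l: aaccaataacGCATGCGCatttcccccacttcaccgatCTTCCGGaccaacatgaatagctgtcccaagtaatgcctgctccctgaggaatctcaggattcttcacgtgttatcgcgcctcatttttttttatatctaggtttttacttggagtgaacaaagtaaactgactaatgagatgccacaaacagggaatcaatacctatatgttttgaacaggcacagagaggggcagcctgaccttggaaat
Cycs: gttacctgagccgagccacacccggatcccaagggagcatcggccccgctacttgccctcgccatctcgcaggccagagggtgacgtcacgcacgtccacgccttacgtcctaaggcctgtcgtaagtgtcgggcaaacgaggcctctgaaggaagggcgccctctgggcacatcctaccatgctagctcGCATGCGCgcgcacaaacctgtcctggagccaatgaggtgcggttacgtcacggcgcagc
Ndufv2: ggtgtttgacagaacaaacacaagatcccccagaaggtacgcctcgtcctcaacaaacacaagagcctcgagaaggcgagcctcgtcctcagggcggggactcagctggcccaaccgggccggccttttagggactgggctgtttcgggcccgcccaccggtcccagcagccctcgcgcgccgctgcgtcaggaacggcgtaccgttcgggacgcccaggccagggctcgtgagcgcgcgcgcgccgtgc

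Of the 89 members, 70 had an upstream sequence. The NRF1 letters were found in 9 of them (12.9%), against 2.56% of 27025 genes with such a sequence. The ETS letters were found in 12 members (17.1%), against 7.83% of all genes, and the YY1 letters in 3 members (4.29%), against 1.29%. At least 1 of the 3 was present in 21 of the 70 members, against 2961 of the 27025 genes. The members with the NRF1 letters were Atp5l, Cycs, Atp5k, Atp5g2, Sdhb, Cox6a1, Ndufa6, Ndufa8 and Ndufa11. Those with the ETS letters were Atp5l, Atp5j, Sdhd, Uqcrh, Ndufb7, Atp5h, Cox6b1, Cox6a1, Ndufb6, Uqcr11, Atp5e and Ndufs3. Both lists hold genes that were called in the tests further on and genes that were not. A gene counts once whichever of its start sites has the letters, and a match of letters is not a binding site measured in these mice.

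Most respiratory chain transcripts were abundant. Values are RPKM, read numbers scaled to transcript length and to the mapped reads of the library, which allow levels to be compared between genes. Of the 89 members, 85 reached the level for testing, 1 RPKM in at least 3 mice. The 4 that did not were Ndufa11b, Ndufb4b, Cox8b and Cox8c. Atp5b, the catalytic beta subunit of ATP synthase, had the highest mean over the 12 mice (464 RPKM), followed by Cox8a (419) and Cox6a1 (418) of complex IV. Of the genes placed in complex I by symbol the highest was Ndufa4 (357), a subunit since reassigned to complex IV, followed by Ndufa3 (236). In complex III it was Uqcrh, the hinge protein that helps cytochrome c bind (259), and then Uqcrb (245), and in complex II the iron-sulfur subunit Sdhb (77.4). Cycs, the soluble electron carrier, had 41.5 RPKM, and Cyc1, the membrane-bound cytochrome c1, had 80.8. The estimated depth was 13100000 to 14000000 reads per library, by a method that confines it to a preset range. Globin transcripts took 24.89% to 25.95% of the summed RPKM of Con-sa libraries and 27.99% to 32.41% for B-sa, so that every B-sa library was above every Con-sa library. Their share was 25.27% to 29.42% for B+Con-FMT and 23.32% to 27.56% for B+A10-FMT. The B cell gene Cd79a (530 to 745 RPKM), the red pulp macrophage gene Spic (44.6 to 81.0) and the erythroid gene Klf1 (117 to 185) were present in every library, as in spleen.

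Summed over the 89 members, the level was 11086, 10909 and 11618 RPKM in the Con-sa mice, 12457, 12775 and 11415 in the B-sa mice, 12113, 12219 and 12489 in the B+Con-FMT mice and 11199, 11280 and 10642 in the B+A10-FMT mice. The group values were 11204 ± 369 (SD, n = 3), 12216 ± 712, 12274 ± 194 and 11040 ± 347. Every B+A10-FMT mouse was below every B-sa and B+Con-FMT mouse, every B+Con-FMT mouse was above every Con-sa mouse, and B-sa overlapped Con-sa through B-sa replicate 3. The summed RPKM of all genes also differed, at 690666 to 701534 for Con-sa, 719521 to 772157 for B-sa, 720595 to 756073 for B+Con-FMT and 677033 to 701773 for B+A10-FMT. As a share of all RPKM in the library, the members took 1.605%, 1.555% and 1.661% in Con-sa, 1.691%, 1.654% and 1.586% in B-sa, 1.647%, 1.616% and 1.733% in B+Con-FMT and 1.596%, 1.648% and 1.572% in B+A10-FMT, and by this share every pair of groups overlapped. As a share of the RPKM outside the globin genes they took 2.097% to 2.211%, 2.276% to 2.448%, 2.245% to 2.319% and 2.05% to 2.203% in the same order, and here both B-sa and B+Con-FMT were above Con-sa and B+A10-FMT without overlap. Each gene was also compared with its own mean over the 12 mice. Of the 85 genes tested, 78, 76 and 41 were above their mean in the B-sa mice, 49, 61 and 79 in the B+Con-FMT mice, 15, 8 and 40 in the Con-sa mice, and 21, 32 and 12 in the B+A10-FMT mice. By this count the B-sa mice did not overlap the Con-sa mice, though by a single gene, since B-sa replicate 3 had 41 and Con-sa replicate 3 had 40. B+A10-FMT was within the range of Con-sa. In whole spleen, fewer cells of a type and less RNA per cell cannot be told apart.

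**Figure D1:**
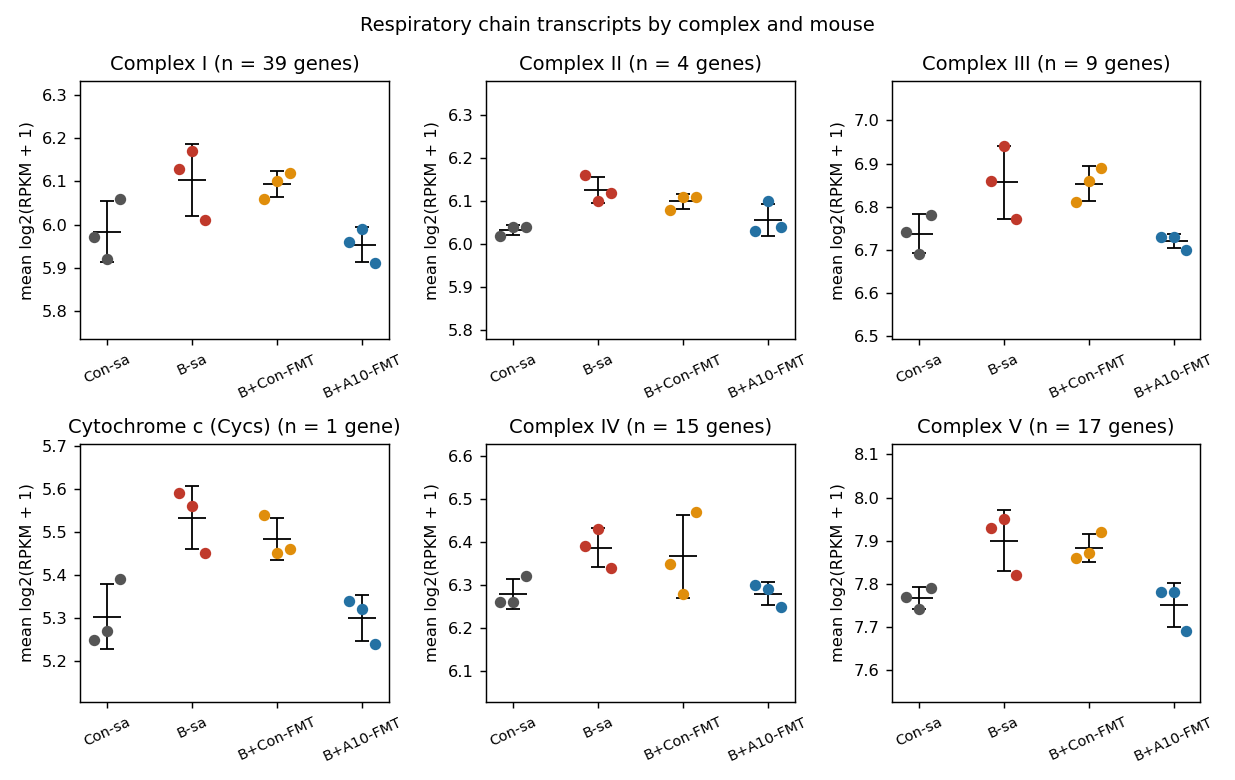
Mean log2(RPKM + 1) over the tested genes of each complex (vertical axis, 0.6 log2 units in each panel) for each mouse (points) in the 4 groups (horizontal axis), with the mean and SD of the 3 mice as bars. In complexes I, III and V all 3 B+A10-FMT mice lie below all B-sa and all B+Con-FMT mice.

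The comparison of B-sa with Con-sa shows the spleen after busulfan. Of the 85 genes tested, 14 were higher in B-sa and 0 were lower at an adjusted p under 0.05 (limma on log2(RPKM + 1), Benjamini-Hochberg over 12671 genes), while 4.73% of all genes tested were called higher and 9.78% lower. The median log2 fold change of the members was 0.13 (9.39%), with 78 values above 0 and 7 below, and the median of all genes tested was -0.044. The share of members called higher was 16.5%. By complex, the median was 0.132 for complex I (4 of 39 called), 0.121 for complex II (1 of 4), 0.111 for complex III (2 of 9), 0.132 for complex IV (3 of 15) and 0.155 for complex V (3 of 17). All 9 genes of complex III and all 17 of complex V had values above 0. The count of 14 depended on single mice, being 2 without B-sa replicate 2, without Con-sa replicate 1 or without Con-sa replicate 2, and 6 without Con-sa replicate 3. The median stayed between 0.092 and 0.17 in those fits. The count was 25 with median-of-ratios scaling, 8 with a replicate block or with NM transcripts alone, 5 with the highest transcript of each gene and 3 when only the 2 groups were fitted.

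In complex I, the strongest difference after busulfan was that of Ndufv2, an iron-sulfur subunit of the arm that oxidises NADH. It had 45.9, 41.7 and 48.1 RPKM in Con-sa and 61.5, 61.6 and 58.5 in B-sa, with no overlap. The log2 fold change was 0.41 (SE 0.08, adjusted p = 0.0084, limma), or 33.3%. In B+Con-FMT it had 57.1, 53.5 and 59.9 RPKM, again above all Con-sa mice, and rose against Con-sa by 0.32 (adjusted p = 0.0286, limma). In B+A10-FMT it had 54.8, 53.2 and 44.0 RPKM, so that replicate 3 lay in the range of Con-sa and the others did not. Ndufv2 was called in neither comparison of B+A10-FMT with another busulfan group. Its gene shares sequence with the overlapping gene Ankrd12, and the counting was not stated to use strand. Also called higher in B-sa were Ndufv1, the flavin-binding partner of Ndufv2 (39.2 ± 1.17 against 45.7 ± 3.49 RPKM, n = 3), Ndufa9 (46.8 ± 0.942 against 53.3 ± 2.22) and Ndufc2. The 2 most abundant genes placed in complex I by symbol were not called. Ndufa4 had 321, 347 and 346 RPKM in Con-sa and 393, 404 and 356 in B-sa, and Ndufa3 had 220, 232 and 243 against 230, 258 and 187.

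In complex II, whose subunits also form the succinate dehydrogenase of the TCA cycle, Sdhd was called higher in B-sa. This membrane anchor had 53.7, 54.9 and 55.5 RPKM in Con-sa and 61.5, 60.2 and 65.0 in B-sa, with no overlap, and the log2 fold change was 0.18 (SE 0.0516, adjusted p = 0.0339, limma). The other anchor, Sdhc, had 62.7 ± 1.12 RPKM in Con-sa and 69.2 ± 3.26 in B-sa (n = 3), without reaching the threshold. The catalytic flavoprotein Sdha had 68.3, 66.3 and 66.9 RPKM in Con-sa and 66.9, 61.9 and 66.6 in B-sa, and its values overlapped in those groups. Over the 12 mice Sdha was among the steadiest members, with a highest value 1.11 times the lowest.

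In complex III, Uqcrb, a subunit that binds near the ubiquinone site, and Uqcrfs1, the Rieske iron-sulfur protein, were called higher in B-sa. Uqcrb had 233, 226 and 227 RPKM in Con-sa, 282, 273 and 256 in B-sa, 274, 243 and 239 in B+Con-FMT and 236, 217 and 237 in B+A10-FMT. All B-sa and B+Con-FMT mice were above all Con-sa mice, while Con-sa and B+A10-FMT overlapped. The log2 fold change in B-sa was 0.24 (SE 0.0614, adjusted p = 0.0244, limma). Uqcrfs1 had 65.2 ± 1.16 RPKM in Con-sa and 73.1 ± 0.897 in B-sa (n = 3). Cyc1, the catalytic partner of Uqcrfs1, had 79.2 ± 3.23 and 82.4 ± 4.47 RPKM, with overlapping mice. The carrier Cycs, also known as a trigger of caspase activation once it leaves the mitochondrion, had 37.1, 37.7 and 40.9 RPKM in Con-sa and 47.2, 46.1 and 42.7 in B-sa, with no overlap. The log2 fold change of Cycs was 0.23 (SE 0.0563, adjusted p = 0.022, limma). Cycs has 3 pseudogene symbols in the reference, and reads could have been split with such copies.

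In complex IV, Cox4i1, Cox7c and Cox6b2 were called higher in B-sa. Cox4i1, the common form of the regulatory subunit 4, had 308, 303 and 312 RPKM in Con-sa, 339, 362 and 338 in B-sa, 356, 367 and 358 in B+Con-FMT and 318, 293 and 302 in B+A10-FMT. The B-sa and B+Con-FMT mice all lay above the mice of the other groups, and Con-sa and B+A10-FMT overlapped. Against Con-sa, Cox4i1 was higher by a log2 fold change of 0.17 in B-sa (SE 0.0467, adjusted p = 0.0309, limma) and of 0.23 in B+Con-FMT (adjusted p = 0.0146). Cox7c, a small membrane subunit, had 332, 331 and 390 RPKM in Con-sa and 402, 436 and 389 in B-sa, where B-sa replicate 3 was just below Con-sa replicate 3. In B+Con-FMT it had 419, 423 and 419 RPKM, and in B+A10-FMT 351, 358 and 327. In the order Con-sa, B-sa, B+Con-FMT, B+A10-FMT, Cox8a had 412 ± 15.7, 425 ± 29.2, 435 ± 13.2 and 404 ± 26.3 RPKM (SD, n = 3). Cox8a, the most abundant gene of the complex, was not called in any of the 6 comparisons.

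In complex V, genes of the peripheral stalk and of the membrane part were called higher in B-sa. Atp5pb, subunit b of the stalk that holds the catalytic head, had 140, 132 and 137 RPKM in Con-sa, 159, 159 and 153 in B-sa, 155, 152 and 154 in B+Con-FMT and 137, 137 and 134 in B+A10-FMT. The mice of B-sa and B+Con-FMT were all above those of Con-sa and B+A10-FMT. Atp5pb was higher after busulfan by a log2 fold change of 0.20 (SE 0.0435, adjusted p = 0.012, limma). Atp5l, subunit g of the membrane part, had 328, 332 and 357 RPKM in Con-sa, 399, 405 and 376 in B-sa, 419, 401 and 393 in B+Con-FMT and 356, 332 and 334 in B+A10-FMT, with the same separation. Its log2 fold change in B-sa was 0.21 (SE 0.052, adjusted p = 0.0203, limma). Atp5j, a coupling factor in the stalk, had 176, 177 and 176 RPKM in Con-sa and 220, 210 and 190 in B-sa, and its log2 fold change was 0.23 (adjusted p = 0.0237, limma). Its gene overlaps Gabpa. The catalytic Atp5b was not called, with 460 ± 7.48 RPKM in Con-sa and 471 ± 14.9 in B-sa (n = 3). Atp5h, a further stalk subunit, had 380, 345 and 379 RPKM in Con-sa and 411, 424 and 396 in B-sa, with an adjusted p of 0.0582 (limma).

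**Figure D2:**
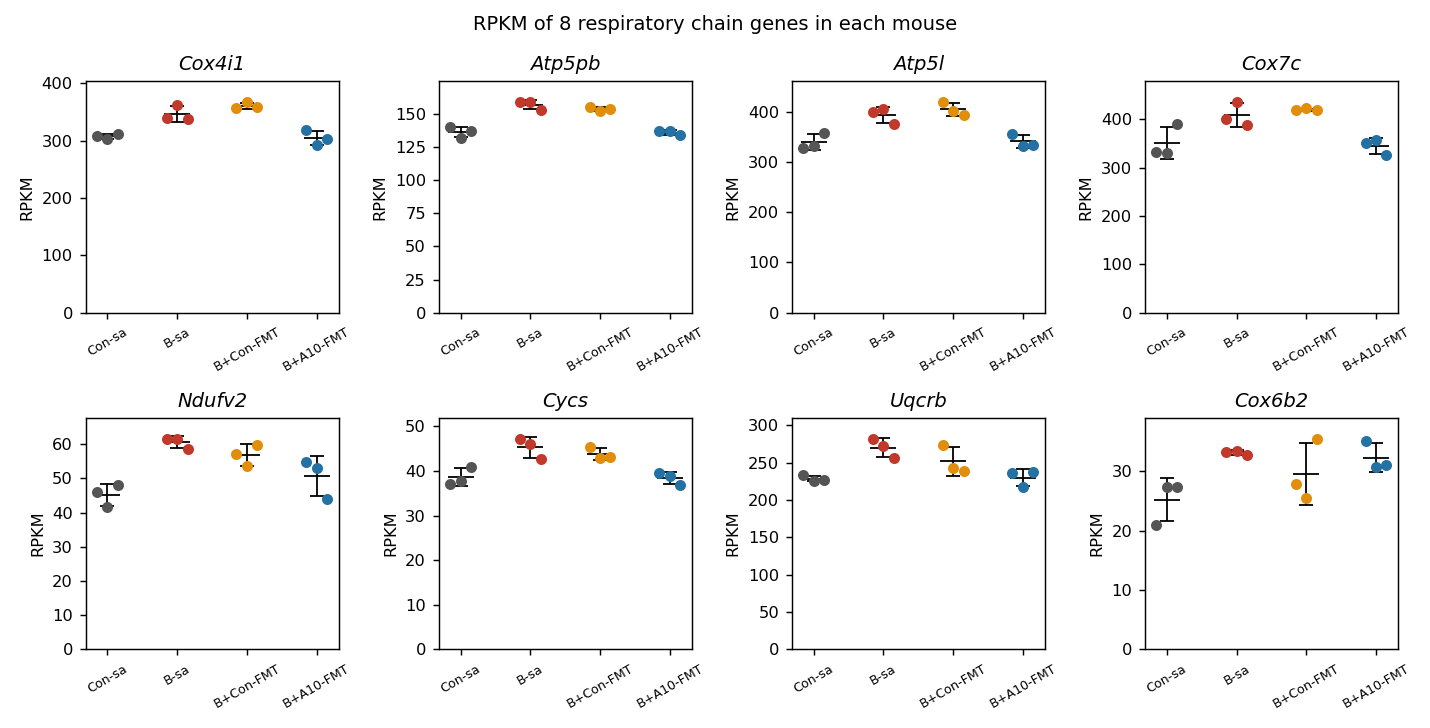
RPKM (vertical axis, from 0) of 8 genes in each mouse (points), with the mean and SD of the 3 mice of each group (horizontal axis) as bars. For Cox4i1, Atp5pb and Atp5l all B-sa and B+Con-FMT mice lie above all Con-sa and B+A10-FMT mice, whereas for Cox6b2 the B+A10-FMT mice (35.1, 30.8 and 31.0 RPKM) stay above the Con-sa mice.

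The comparison of B+Con-FMT with B-sa asks what FMT from control donors added to busulfan. None of the 85 genes tested was called (0 higher and 0 lower by limma), against 0.623% of all genes tested called higher and 0.221% lower. At an unadjusted p under 0.05 there were 5 (5.88%), against 18.4% of all genes tested. The median log2 fold change of the members was -0.011, with 37 values above 0 and 48 below, and the median of all genes tested was -0.004. The largest difference was that of Ndufa4l2, a relative of Ndufa4 known to be induced in low oxygen, which had 3.19, 2.08 and 2.76 RPKM in B-sa and 1.39, 1.71 and 1.62 in B+Con-FMT. These mice did not overlap, and the log2 fold change was -0.50 (SE 0.15, adjusted p = 0.118, limma). With libraries scaled to equal totals outside the globin genes the median of the members was -0.063.

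B+Con-FMT was next compared with Con-sa. Here 5 members were higher and 1 was lower, against 2.3% of all genes tested called higher and 6.57% lower. The median log2 fold change was 0.121, with 77 values above 0 and 8 below, beside -0.041 for all genes tested. With equal totals outside the globin genes the median of the members was 0.072, with 64 above 0 and 22 below. The genes called higher were Cox4i1, Atp5l, Ndufv2, Atp5pb and Cox7c, with log2 fold changes of 0.23, 0.25, 0.32, 0.17 and 0.26. The comparison of B-sa used the same Con-sa mice, and there their log2 fold changes were 0.17, 0.21, 0.41, 0.20 and 0.22. The gene called lower was Cox6a2, the heart and skeletal muscle form of subunit 6a. No count of 6 was reached without Con-sa replicate 1 or Con-sa replicate 2 (0 each), without B+Con-FMT replicate 1 (1), or without B+Con-FMT replicate 2 or replicate 3 (3 each), and 11 were called without B-sa replicate 3. The count was 16 with median-of-ratios scaling, 11 with the length and GC trend removed and 3 with NM transcripts alone or the highest transcript of each gene.

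The comparison of B+A10-FMT with B-sa asks what FMT from AOS-dosed donors added to busulfan. It uses the same B-sa mice as the comparison of B-sa with Con-sa, but with the opposite sign, so their calls are not independent. High values in the B-sa mice would raise the members in that comparison and lower them in this one. Of the 85 genes, 9 were lower in B+A10-FMT and 0 were higher, while 1.27% of all genes tested were called lower and 4.0% higher. The median log2 fold change of the members was -0.155 (-10.2%), with 79 values below 0 and 6 above, and the median of all genes tested was 0.046. The share of members called lower was 10.6%, and 39 (45.9%) had an unadjusted p under 0.05, against 24.5% of all genes tested. The genes called came mostly from complex V, with 5 of 17, and 1 each from complex I, complex III, cytochrome c and complex IV. All 9 complex III genes and all 17 complex V genes had values below 0, and the medians were -0.159, -0.155, -0.131 and -0.148 for complexes I, III, IV and V. Complex II had a median of -0.076 and 0 genes called.

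The 5 complex V genes lower in B+A10-FMT were Atp5pb, Atp5k, Atp5j, Atp5l and Atp5g3, and in all 5 the B+A10-FMT mice were below every B-sa mouse. Atp5k, subunit e, which with subunit g joins ATP synthases into dimers, had 131, 149 and 134 RPKM in B-sa and 106, 107 and 111 in B+A10-FMT. Its log2 fold change was -0.35 (SE 0.0776, adjusted p = 0.0269, limma). In Con-sa Atp5k had 134, 116 and 115 RPKM, above the B+A10-FMT mice, and this difference was not called. Atp5k has 4 pseudogene symbols and Atp5l has 2. The fold change of Atp5pb was -0.21 (adjusted p = 0.0222, limma) and that of Atp5j -0.24 (adjusted p = 0.0314). Atp5b had 472, 487 and 449 RPKM in B+A10-FMT against 480, 479 and 454 in B-sa, and was not called.

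In the other complexes, Ndufs5, an accessory subunit of complex I, had 77.8, 85.7 and 83.4 RPKM in B-sa and 70.2, 63.3 and 65.9 in B+A10-FMT, with no overlap. Its log2 fold change was -0.30 (SE 0.0724, adjusted p = 0.0346, limma). Cycs had 39.6, 38.9 and 36.9 RPKM in B+A10-FMT, below every B-sa mouse and overlapping Con-sa, and its fold change was -0.23 (SE 0.0563, adjusted p = 0.0368, limma). Cox4i1 was lower by the same test, at -0.19 (adjusted p = 0.04), and so was Uqcrb, at -0.23 (adjusted p = 0.0477). Among the complex II genes, Sdhd had 52.6, 58.3 and 55.4 RPKM in B+A10-FMT, below every B-sa mouse, with a log2 fold change of -0.16 and an adjusted p of 0.0769 (limma). Sdhc had 60.5, 67.6 and 64.3, Sdha 66.8, 65.1 and 68.7 and Sdhb 79.6, 81.4 and 72.8, and these 3 overlapped B-sa. None of the 4 passed the test, and the mean log2 level of complex II was below every B-sa mouse in each B+A10-FMT mouse (group difference -0.07). The count of 9 was 0 without any 1 of the 3 B+A10-FMT mice or without B-sa replicate 2, 4 without B-sa replicate 1, 3 without Con-sa replicate 1, 5 without B+Con-FMT replicate 3 and 18 without B-sa replicate 3. The median stayed between -0.192 and -0.117 in those fits. The count was 21 with median-of-ratios scaling, 5 by limma without trend and robust, 4 with no filter, 2 with a replicate block, with NM transcripts alone or with the highest transcript of each gene, and 1 when only the 2 groups were fitted.

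**Figure D3:**
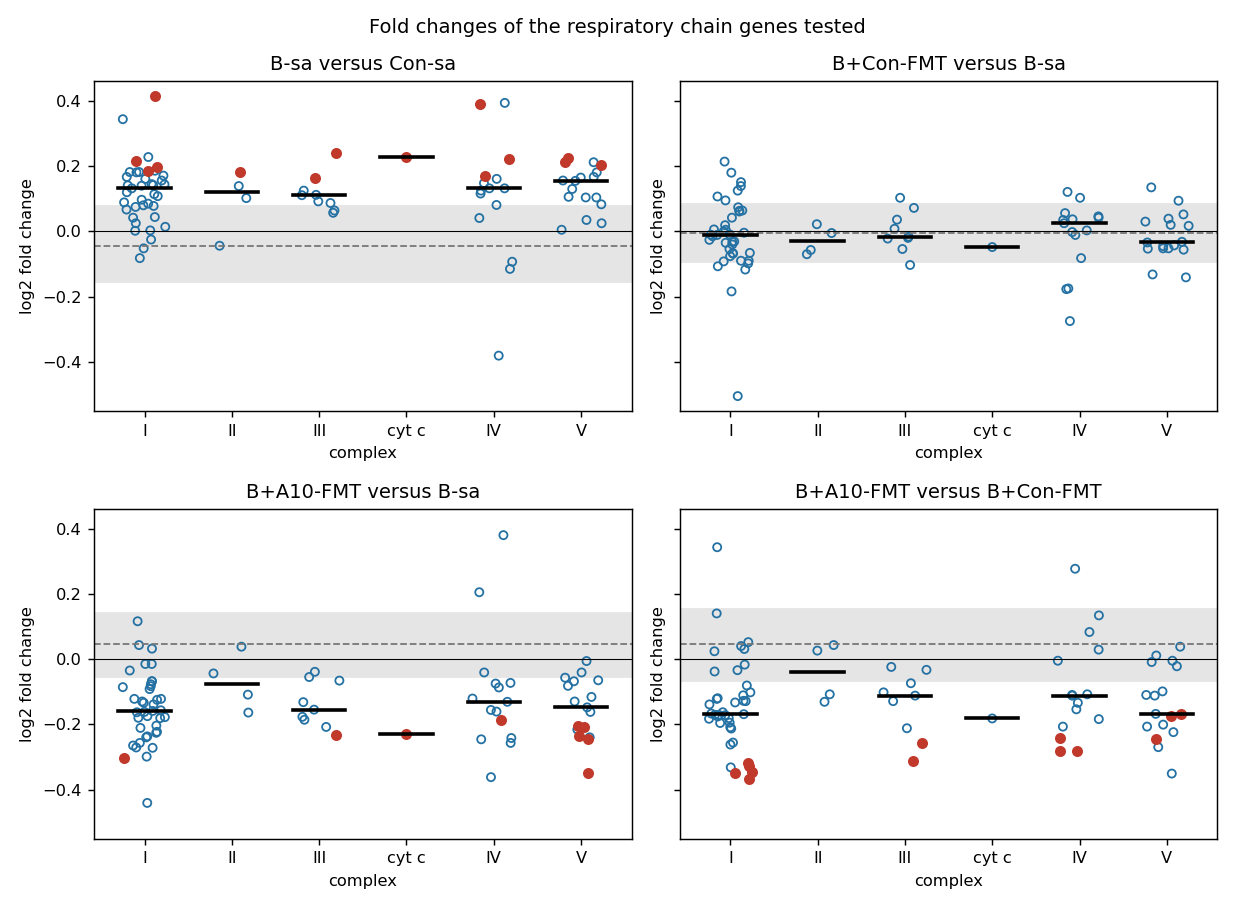
Log2 fold change (vertical axis) of each tested gene by complex (horizontal axis) in 4 comparisons. Filled points were called at adjusted p under 0.05, open points were not, thick lines are medians, the dashed line is the median and the grey band the interquartile range of all genes tested. The members lie mostly above the band's centre in B-sa versus Con-sa (median 0.13) and below it in both comparisons of B+A10-FMT (medians -0.155 and -0.133).

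The comparison of B+A10-FMT with B+Con-FMT sets the AOS donors against control donors. Of the 85 genes, 13 were lower in B+A10-FMT and 0 were higher, while 2.78% of all genes tested were called lower and 7.58% higher. The median log2 fold change of the members was -0.133 (-8.81%), with 71 values below 0 and 14 above, and the median of all genes tested was 0.046. The share of members called lower was 15.3%. By complex, 5 of 39 genes were called in complex I, 2 of 9 in complex III, 3 of 15 in complex IV, 3 of 17 in complex V and 0 of 4 in complex II. This comparison shares the B+A10-FMT mice with the one before it, so their calls are not independent.

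Complex I accounted for 5 accessory subunits called lower than in B+Con-FMT, namely Ndufa2, Ndufb8, Ndufa5, Ndufa1 and Ndufb7. Ndufa2 had 54.8, 61.4 and 59.9 RPKM in B+Con-FMT and 47.0, 46.3 and 44.6 in B+A10-FMT, with no overlap, and in Con-sa it had 54.3, 45.7 and 56.6, which overlapped both FMT groups. Its log2 fold change was -0.34 (SE 0.0832, adjusted p = 0.0245, limma). Ndufb7 had 127, 140 and 139 RPKM against 102, 108 and 104, and its log2 fold change was -0.37 (SE 0.103, adjusted p = 0.0427, limma). Of these genes Ndufa1 and Ndufa2 overlap other genes, Rnf113a1 and Tmco6. The catalytic subunit Ndufv1, higher in B-sa mice than in Con-sa mice, had 42.9, 43.0 and 43.6 RPKM in B+A10-FMT and 40.1, 41.2 and 44.8 in B+Con-FMT, and was not called between them.

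In complex III, Uqcrh had 296, 289 and 276 RPKM in B+Con-FMT and 228, 224 and 243 in B+A10-FMT, with no overlap, and its log2 fold change was -0.31 (SE 0.0658, adjusted p = 0.0152, limma). Uqcrq, which overlaps Gdf9, was the other gene called. In complex IV, Cox4i1 was lower by 15.5% (log2 fold change -0.24, SE 0.0467, adjusted p = 0.0103, limma), Cox7c by a log2 fold change of -0.28 (adjusted p = 0.0225), and Cox6c also passed. In complex V, Atp5l (-0.25, adjusted p = 0.015, limma), Atp5pb (-0.17, adjusted p = 0.0278) and Atp5g2, a gene for the rotating c ring, were lower. Atp5h had 425, 414 and 408 RPKM in B+Con-FMT and 384, 366 and 360 in B+A10-FMT, with no overlap and an adjusted p of 0.054 (limma). The count of 13 was 0 without B+A10-FMT replicate 2, 2 without B+Con-FMT replicate 2, 5 without B+A10-FMT replicate 3 or B+Con-FMT replicate 1, 6 without B+Con-FMT replicate 3 and 21 without B-sa replicate 3. The genes in these counts were lower, except that the 6 were 5 lower and 1 higher, Cox4i2. The count was 30 with median-of-ratios scaling, 20 with the length and GC trend removed, 8 with a replicate block, 6 with no filter or NM transcripts alone and 4 with the highest transcript of each gene. With equal totals outside the globin genes 9 were lower and 1 higher, Ndufa10, and the median was -0.076, and it stayed below 0 in every other setting tried.

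Between B+A10-FMT and Con-sa, 0 of the 85 genes tested were called (limma), against 0.118% of all genes tested called higher and 0.292% lower. An unadjusted p under 0.05 was found for 7 members (8.24%), against 13.5% of all genes tested. The median log2 fold change was -0.009, with 35 values above 0 and 50 below, and the median of all genes tested was 0.005. For Atp5pb the difference was -0.002 on the log2 scale (SE 0.0435), for Atp5l 0.007 (SE 0.052), for Cycs -0.003 (SE 0.0563) and for Cox4i1 -0.015 (SE 0.0467). These genes had been called higher in B-sa against Con-sa and lower in B+A10-FMT against B-sa. Small differences from Con-sa follow in part from that choice and do not stand for the other members. Ndufs5, Atp5k and Atp5g3, all also called lower against B-sa, lay below every Con-sa mouse in all B+A10-FMT mice. Their differences were -0.158 (SE 0.0724, adjusted p = 0.366, limma), -0.168 (SE 0.0776, adjusted p = 0.369) and -0.08 (SE 0.0603, adjusted p = 0.591). Ndufa1, Ndufa11, Ndufb8, Atp5g2 and Cox6a2 also lay below every Con-sa mouse. Atp5mpl, Cox4i2, Cox6b2, Cox7b, Ndufa10 and Ndufv1 lay above every Con-sa mouse. A p that misses the threshold does not show that the groups are alike, and Ndufv2 was still 11.5% above Con-sa on average, with overlapping mice. Over the 6 comparisons, which share mice, 27 members were called at least once (31.8% of those tested) and 58 never, against 24.9% of all genes tested called at least once. Cox4i1, Atp5l and Atp5pb were called in 4 comparisons, Cox7c in 3, and Atp5j, Cycs, Ndufv2 and Uqcrb in 2.

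Several subunits of complex IV and Ndufa4 have forms that are used mainly in other tissues, and these were scarce beside their common counterparts in spleen. Cox4i2, the lung form, made up 0.322% of the summed RPKM of Cox4i1 and Cox4i2 over the 12 mice, Cox6a2 0.8% of its pair with Cox6a1, Cox7a1, the muscle and brown fat form, 1.4% of its pair with Cox7a2, Cox8b 0.147% of its pair with Cox8a, and Ndufa4l2 0.634% of its pair with Ndufa4. Cox8c, a testis form, was listed at 0 in all mice but B-sa replicate 1 (0.21 RPKM). Cox7b (84.2 to 95.5 RPKM) had no counterpart in the set. Larger shares were those of Cox6b2, known as the testis form of subunit 6b, at 8.7% of its pair with Cox6b1, and of Ndufb4c, a gene named as a relative of the complex I subunit Ndufb4, at 11.8% of its pair with Ndufb4.

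Cox6b2 had 21.0, 27.4 and 27.3 RPKM in Con-sa, 33.3, 33.5 and 32.8 in B-sa, 27.8, 25.5 and 35.5 in B+Con-FMT and 35.1, 30.8 and 31.0 in B+A10-FMT. All B-sa and all B+A10-FMT mice were above the Con-sa mice. Against Con-sa the difference was 0.39 on the log2 scale after busulfan alone (SE 0.118, adjusted p = 0.0449, limma) and 0.35 in B+A10-FMT (adjusted p = 0.248). Cox6b1 had 303 ± 20.1, 329 ± 37.5, 338 ± 6.21 and 293 ± 12.4 RPKM (SD, n = 3) in the same order of groups, and was not called.

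Cox6a2 was highest in Con-sa. It had 5.13, 4.24 and 4.78 RPKM in Con-sa, 2.64, 3.72 and 3.89 in B-sa, 3.28, 2.1 and 3.38 in B+Con-FMT and 2.69, 1.94 and 2.65 in B+A10-FMT, so every mouse given busulfan was below every Con-sa mouse. The log2 fold change against Con-sa was -0.38 in B-sa (adjusted p = 0.104, limma), -0.56 in B+Con-FMT (SE 0.15, adjusted p = 0.0397) and -0.74 in B+A10-FMT (adjusted p = 0.0545). Its share of the pair with Cox6a1 was 1.07% to 1.32% in Con-sa and 0.464% to 0.942% in the other mice. The common Cox6a1 had 401 ± 34.7 RPKM in Con-sa and 439 ± 27.2 in B-sa (n = 3). Of 14 striated muscle markers, 5 reached the level for testing, the summed level was 16.4 to 19.1 RPKM in Con-sa and 13.0 to 31.4 in the other mice, and Tnnt3, a troponin gene of fast muscle, was lower in the B+A10-FMT mice than in the B+Con-FMT mice (log2 fold change -0.78, adjusted p = 0.0204, limma). The fast muscle myosin light chain gene Mylpf had 7.12 to 12.8 RPKM over the 12 mice and the troponin gene Tnni2 1.94 to 4.48, so that Mylpf was above and Tnni2 overlapped the range of Cox6a2. Ckm had at most 1.71 RPKM and Acta1 at most 2.9, and myoglobin, Mb, was listed at 0 in 7 mice. The part of muscle tissue in the Cox6a2 values was not tested. Cox6a2 lies next to and overlaps Itgad, a leukocyte integrin gene, in the annotation, and a part of Itgad reads in its value was not tested.

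**Figure D4:**
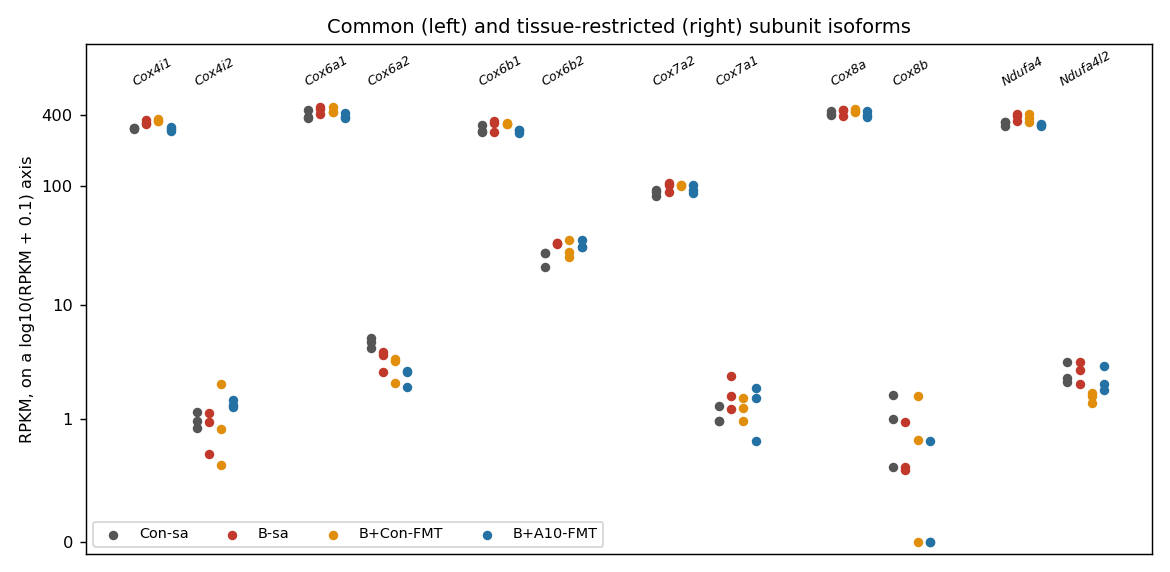
RPKM of each common isoform (left of each pair) and its tissue-restricted counterpart (right) in each of the 12 mice, on a log10(RPKM + 0.1) axis, with points coloured by group. Cox6b2 is the one restricted form above 20 RPKM in every mouse, and Cox6a2 is highest in the Con-sa mice (4.24 to 5.13 RPKM).

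Other mitochondrial genes were followed in lists beside the respiratory chain. Of 78 mitochondrial ribosomal protein genes, which make the subunits encoded in mitochondrial DNA, 7 were higher in B-sa mice than in Con-sa mice and 0 lower (median log2 fold change 0.09), led by Mrpl51 (0.36, adjusted p = 0.00774, limma). In B+A10-FMT against B-sa 0 of the 78 were called (median -0.099). In B+A10-FMT against B+Con-FMT 7 were lower and 0 higher (median -0.12), led by Mrps6 (-0.47, adjusted p = 0.00823). Of 23 mitochondrial import genes tested, 2 were lower in B+A10-FMT mice than in B+Con-FMT mice (median -0.097), Tomm7 and Tomm20, both of the outer membrane entry gate. Of these 23, 0 were called in B-sa against Con-sa (median 0.092) and 1 was lower in B+A10-FMT against B-sa (median -0.07). The 45 assembly factors tested, which build the complexes without being part of them, had medians of 0.03, 0.002 and -0.038 in B-sa against Con-sa, B+A10-FMT against B-sa and B+A10-FMT against B+Con-FMT, and 1 was called over these, Cox15, higher in the last (0.30, adjusted p = 0.0322, limma). The 17 TCA cycle enzymes had medians of 0.055, 0.004 and 0.055, with Pdhb called higher in the first comparison and Pdha1 in the last, both of the pyruvate dehydrogenase complex that feeds the cycle. The 16 regulators of mitochondrial biogenesis tested had medians of -0.029, 0.03 and -0.001, and Gabpb2 was the gene called over these, higher in the last (0.22, adjusted p = 0.0496, limma). The 16 glycolysis genes had medians of 0.068, -0.068 and -0.063 in the same comparisons, with 9, 4 and 5 of them above 0. Slc2a1, a glucose transporter, was lower in B-sa mice than in Con-sa mice (-0.30, adjusted p = 0.0395, limma), against the sign of the list's median, and Ldha, lactate dehydrogenase, was lower in B+A10-FMT mice than in B+Con-FMT mice (-0.20, adjusted p = 0.0455).

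Antioxidant enzymes and cytosolic ribosomal proteins were followed too. Of 14 antioxidant enzymes, 5 were higher in B-sa mice than in Con-sa mice and 0 lower (median 0.186), among them Txn1 (0.44, adjusted p = 0.00675, limma) and Prdx2 (0.36, adjusted p = 0.00793). In B+A10-FMT against B-sa the median was -0.117, with 1 gene lower. Between the FMT groups it was -0.061, with 0 lower and 1 higher in B+A10-FMT, the catalase gene Cat (0.25, adjusted p = 0.0213, limma). The 77 cytosolic ribosomal protein genes had a median transcript length of 632 bases and a median log2 fold change of -0.043 in B-sa against Con-sa, with 0 called higher and 1 lower. In B+A10-FMT against B+Con-FMT their median was -0.105 with 13 lower, and in B+Con-FMT against B-sa it was 0.092, where that of the respiratory chain was -0.011.

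**Figure D5:**
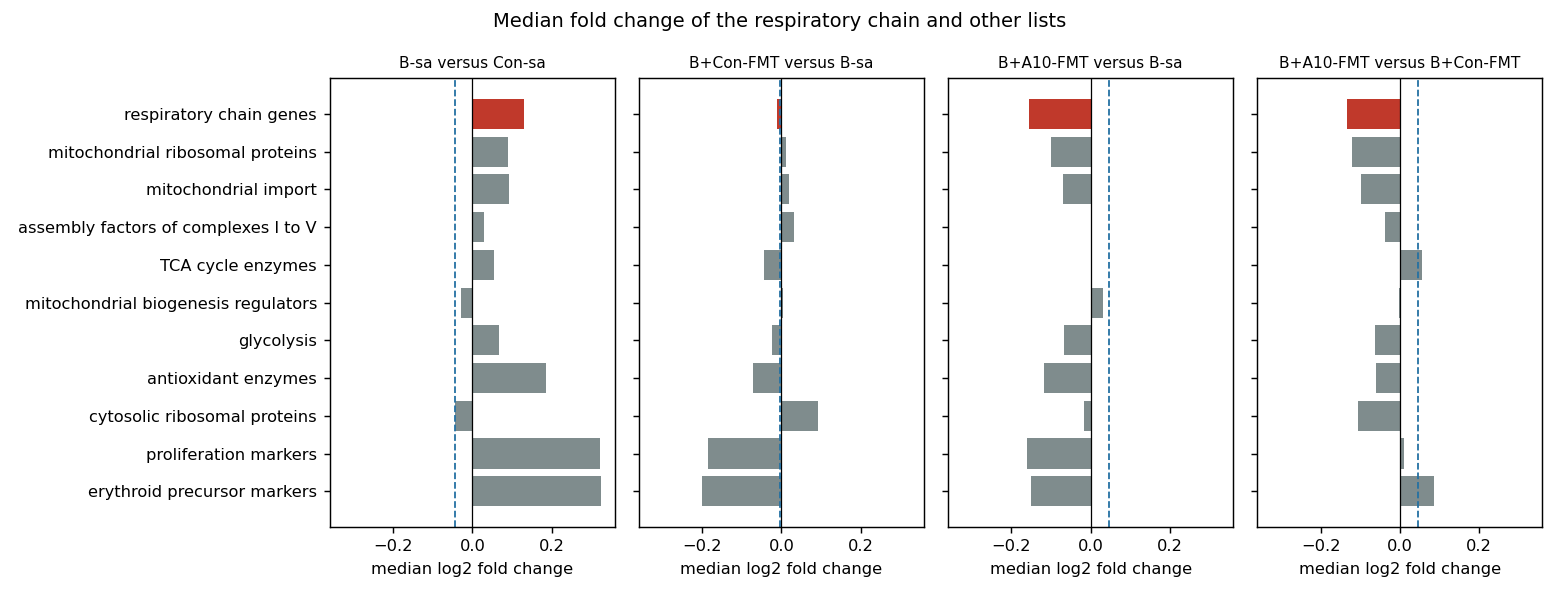
Median log2 fold change (horizontal axis) of the respiratory chain genes (first bar) and of 10 other gene lists in 4 comparisons, with the median of all genes tested as a dashed line. In B-sa versus Con-sa the erythroid and proliferation lists are higher (0.325 and 0.322) than the respiratory chain (0.13), and against B+Con-FMT in the last panel both are near or above 0 while the respiratory chain is at -0.133.

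Transcripts used as markers of proliferation and of cell types also differed between groups, and cell numbers cannot be read from them. Of 20 proliferation markers, 16 were higher in B-sa mice than in Con-sa mice (median 0.322), with a summed level of 1643 to 1775 RPKM in the Con-sa mice, 1951 to 2229 in the B-sa mice, 1757 to 2050 with B+Con-FMT and 1859 to 1913 with B+A10-FMT. Of 20 erythroid precursor markers, 10 were higher in B-sa (median 0.325), and the summed level was 3617 to 4051, 3972 to 5025, 3932 to 4233 and 4083 to 4452 RPKM in the same order. In B+A10-FMT against B+Con-FMT, where the respiratory chain was lower, the proliferation list had a median of 0.011 with 1 gene lower (Tyms), and the erythroid list 0.086 with 0 called. In B+A10-FMT against B-sa, where the respiratory chain was lower as well, the proliferation list had a median of -0.161 with 2 genes lower and 0 of 20 values above 0, and the erythroid list -0.15 with 0 called and 3 of 20 above 0. B-sa replicate 3, in which the respiratory chain was at the level of Con-sa replicate 3, had 2206 RPKM of proliferation and 5023 RPKM of erythroid markers, within the range of the other B-sa mice. Of 10 B cell markers, 7 were lower in B-sa mice than in Con-sa mice, at 1707 to 2058 against 2250 to 2476 RPKM, and 4 were lower in B+Con-FMT (1957 to 2048). With B+A10-FMT the B cell markers summed to 1996 to 2104 RPKM, also below every Con-sa mouse. Their median against Con-sa was -0.253, with 1 of 10 values above 0 and 0 called. Against B-sa their median was 0.143, with 8 of 10 above 0 and 0 called. Of 10 T cell markers, 4 were higher in B+Con-FMT than in Con-sa, at 442 to 551 against 345 to 401 RPKM, and 3 were higher than in B-sa (327 to 413 RPKM, median 0.399). With B+A10-FMT the T cell markers summed to 379 to 439 RPKM, below every B+Con-FMT mouse, with a median of -0.203 against that group, 1 of 10 values above 0 and 0 called. Of 10 macrophage and monocyte markers, 7 were higher in B+A10-FMT mice than in B+Con-FMT mice, at 1795 to 2200 against 1609 to 1948 RPKM. Of 10 endothelial and stromal markers 5 were higher there, with 6 of 10 values above 0, at 209 to 223 against 196 to 237 RPKM. Against B-sa, 3 macrophage and monocyte markers were higher in B+A10-FMT (median 0.338, 10 of 10 values above 0). Of the endothelial and stromal markers 2 were higher and 1 lower against B-sa (median 0.092, 5 of 10 above 0). In the same comparison 1 T cell marker was higher (median 0.133, 10 of 10 above 0). No marker in these lists was at 0 in all mice, and the part of any of them in the respiratory chain differences was not tested.

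Transcripts known as markers of tissues next to the spleen had unequal levels, and whether such tissue was present was not tested. The 15 pancreatic acinar markers summed to 1472 to 8016 RPKM in the Con-sa mice, 531 to 3764 in the B-sa mice, 9156 to 14732 with B+Con-FMT and 499 to 10679 with B+A10-FMT, with 0 called in any comparison. Their median between the FMT groups was -2.812, with 0 of 15 values above 0. In B+A10-FMT the replicate with 10679 RPKM was replicate 3, which also had the lowest summed respiratory chain level (10642 RPKM), and replicates 1 and 2, with 499 and 871, were also below every B-sa and B+Con-FMT mouse in that level. Of 10 adipocyte markers the summed level was 120 to 230 RPKM in the Con-sa mice, 126 to 309 in the B-sa mice, 40.1 to 123 with B+Con-FMT and 69.9 to 81.7 with B+A10-FMT, and the brown fat gene Ucp1 was listed at 0 in 11 mice. Of the 7 adipocyte markers tested, 1 was lower in B+A10-FMT against B-sa, with a median of -1.274 and 0 values above 0, and 0 were called in the other comparisons. The 8 kidney markers summed to 83.5 to 130 RPKM in the Con-sa mice, 11.7 to 22.8 in the B-sa mice, 24.1 to 72.5 with B+Con-FMT and 8.48 to 11 with B+A10-FMT, so that the 4 groups did not overlap. Of the 3 that could be tested, Kap and Slc34a1 were lower in B-sa mice than in Con-sa mice (-3.00 and -1.31, adjusted p = 0.0104 and 0.00623, limma), and Kap was lower with B+A10-FMT than with B+Con-FMT (-3.59, adjusted p = 0.00789, limma). The part of these tissues in the respiratory chain differences was not tested.

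Transcript length was a further property that the members shared. Their median length was 607.5 bases, with 75 of 84 under 1000 bases, against 1386.5 bases for all genes tested. Among genes outside the respiratory chain, those under 1000 bases had a median of -0.015 in B-sa against Con-sa, 0.016 in B+A10-FMT against B-sa and 0.009 in B+A10-FMT against B+Con-FMT, while those of 4000 bases and over had medians of -0.129, 0.123 and 0.124. With the trend on length and GC content removed from each library, the medians of the respiratory chain were 0.131, -0.142 and -0.121, with 18 higher, 11 lower and 20 lower. The part of transcript length in the differences was not tested beyond this.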

How the data were processed

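Spleen RNA of 12 mice was sequenced, 3 per group, and the labels do not say that replicate numbers pair the mice. The authors deposited RPKM values for 60654 RefSeq transcripts per mouse, normalized to transcript length and mapped reads. The study's methods name SOAPaligner and oligo(dT) selection, whereas the submitters' processing notes name HISAT, Bowtie2 and mm10 and the labels a BGISEQ library protocol, so the aligner behind the values is not settled. No counts were used, and depth (13100000 to 14000000 reads) was inferred from the spacing of the lowest RPKM values. Single estimates outside a preset range were dropped before the median was taken, so a depth outside that range could not be seen. The estimate therefore does not show that the libraries were alike in depth.

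RPKM was summed over the transcripts of each Entrez gene (18221 genes, of which 18115 had a symbol in the reference tables). The 12671 genes that reached 1 RPKM in 3 or more mice were tested on log2(RPKM + 1), so fold changes understate those of low genes. limma 3.58.1 (R 4.3.3, trend and robust) was fitted to all 12 mice, with Benjamini-Hochberg adjustment over all genes tested, two-sided, and calls were made at an adjusted p under 0.05. The script was tested on simulated data. Where nothing says how mice were housed or libraries batched, p-values measure the spread between these mice. Pseudogene and overlapping gene annotations came from RefSeq (GRCm38.p6), lengths and GC content from GENCODE M21 (17659 genes, 96.9%), as the median over a gene's transcripts, and upstream sequences from RefSeq.

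Genes named were the 2 of highest mean RPKM of each complex, Cycs, Cyc1, the Sdh genes, up to 5 called members of lowest adjusted p per comparison, and tissue-restricted isoforms with their common counterparts. Of each other list they were up to 2 called genes of lowest adjusted p in B-sa versus Con-sa and B+A10-FMT versus B+Con-FMT. The choice of any other member named followed from its values, apart from the full lists of members with the NRF1 or ETS letters. The members and lists were chosen with earlier results of these data known. Alternatives changed the pseudocount (0.1), the filter, the scaling, the transcripts summed, the model and the mice.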

Additional observations from a re-analysis of the deposited data

How the results depend on the processing

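The 14 members called between B-sa and Con-sa, the 9 between B+A10-FMT and B-sa, the 13 between the FMT groups and the 6 between B+Con-FMT and Con-sa became 25, 21, 30 and 16 with median-of-ratios scaling, 8, 2, 6 and 3 with NM transcripts only, and 5, 2, 4 and 3 with the highest transcript only. With no filter the second and next counts became 4 and 6. With only the 2 groups compared the first became 3 and the second 1, and B+A10-FMT versus Con-sa gave 1. limma without trend and robust left 5 in the second. Removal of the length and GC trend gave 20 between the FMT groups and 11 between B+Con-FMT and Con-sa. Same-numbered mice had correlations of -0.373 to 0.303 in their deviations, and the labels name no shared cage, batch or day, so the mice were not treated as paired, though a pairing is not excluded. With a replicate block in the model the first 3 counts were 8, 2 and 8.

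Without 1 mouse, these counts ranged from 2 to 17, 0 to 18, 0 to 21 and 0 to 11, with 0 to 1 for B+A10-FMT versus Con-sa and 0 to 0 for B+Con-FMT versus B-sa. The medians ranged from 0.092 to 0.17, -0.192 to -0.117, -0.169 to -0.12, 0.087 to 0.144, -0.026 to 0.015 and -0.05 to 0.024 in the same order. With the other settings the median was -0.184 (median of ratios) and -0.076 (equal totals outside the globin genes) between the FMT groups, 0.172 (median of ratios) and 0.072 (equal totals) in B+Con-FMT versus Con-sa and -0.063 (equal totals) in B+Con-FMT versus B-sa.

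Differences of mean level by complex in B-sa versus Con-sa were 0.144 for complex II and 0.183 for complex V with median-of-ratios scaling. Between the FMT groups they were -0.093 and -0.188 for complexes II and V with that scaling, 0.015, -0.082 and -0.078 for complexes II, III and V with equal totals, so that complex II turned its sign, and -0.251 for cytochrome c with the length and GC trend removed. Without 1 mouse, the differences in B-sa versus Con-sa ranged from 0.086 to 0.168 (I), 0.081 to 0.108 (II), 0.075 to 0.161 (III), 0.198 to 0.27 (Cycs), 0.081 to 0.125 (IV) and 0.111 to 0.173 (V), and between the FMT groups, B+A10-FMT less B+Con-FMT, from -0.159 to -0.118, -0.064 to -0.027, -0.16 to -0.121, -0.203 to -0.153, -0.129 to -0.034 and -0.153 to -0.105. The called pairs of a member and a comparison kept their direction in every setting tried, but 131 of 462 fits of them with other settings and 216 of 504 without 1 mouse did not pass the threshold. The cause of these shifts was not tested. Reads per gene were not given, which limits the precision known for low genes such as Cox4i2, Cox7a1 and Cox8b.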
